A study of Rattus norvegicus with 27 samples.

Results

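The comparison set the renal outer medulla of 4 salt-sensitive rats that had received GapmeRs against Dnmt3a and Tet3 during a high-salt diet (HS_DT) beside that of 4 rats taken before any such treatment (PRE_LS). These 8 rats were chosen by their group in the labels, out of 27 rats in the whole series and 12 in the count table of the GapmeR experiment. All 12 were Dahl salt-sensitive rats of the MCW colony (MCW SS), and each library is 1 rat. HS_DT rats received the 2 GapmeRs into the kidney at 2 mg/kg each and 4% NaCl in the diet for a time given as 7 with no unit. PRE_LS rats had the same surgery and 0.4% NaCl, and their tissue was collected at the point where GapmeRs and high salt would have begun. The contrast therefore holds the target GapmeRs, an oligonucleotide given into the kidney, the salt and the elapsed time at once, and these cannot be told apart from it. The remaining group of the table, HS_SCR (n = 4), had 4% NaCl for 7 days and a GapmeR of scrambled sequence at 4 mg/kg, and its values are given beside those of HS_DT and PRE_LS. Age and sex of these rats are not given in the labels used here. One label field writes the first target as Dnmt3, and the treatment protocol as Dnmt3a.

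DNMT3A is a de novo DNA methyltransferase, which places methyl groups on cytosines of CpG dinucleotides that carried none. TET3 oxidises methylcytosine, the first step of active demethylation, so the GapmeRs were directed at enzymes of opposite action. A GapmeR is an antisense oligonucleotide whose DNA core recruits RNase H to cut the matching RNA. Dahl SS rats are inbred and become hypertensive when fed much salt, and the outer medulla holds the medullary thick ascending limbs, which reabsorb salt. Reduced representation bisulfite sequencing (RRBS) cuts DNA at CpG-rich places and reads unmethylated cytosine as T and methylated cytosine as C. The methylation level of a rat is C reads as a percentage of C and T reads. DNA counts hold no RNA, so neither the knockdown of Dnmt3a and Tet3 nor the cell makeup of the tissue was measured here. In bulk tissue a shift in the mix of cell types and a change within cells cannot be told apart.

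The 8 libraries held 174400859 to 257658964 CpG read counts, and all 12 carry the same lane code in the labels. Sites with at least 10 reads in all 12 libraries numbered 1219703 and are called common sites, with a median of 66 to 98 reads in each of the 8 rats. The animal numbers were 781, 782, 783 and 862 in HS_DT and 858 to 861 in PRE_LS, so 3 of the 4 HS_DT rats came from another number range. What the numbers stand for is not in the labels, and the range largely cannot be told apart from the group.

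The sequences of 6 promoter windows are printed here because the results below turn on them. Fgd3 and Plekhg5 had the smallest p among windows lower in HS_DT. Nono had the smallest p among windows higher in HS_DT, Foxo4 lies near Nono on the X chromosome and differed in the other direction, and Dnmt3a and Tet3 are the genes targeted. Each is the RefSeq GRCr8 sequence from 250 bases before to 50 bases after the gene's start, 5′ to 3′ on the gene's strand. Capitals mark the CpGs that were common sites in the table. Their rn5 positions were found by matching the spacing of CpGs, as described under promoters below. Fgd3 was placed at chr17:17807277-17807576, Plekhg5 at chr5:172827560-172827859, Nono at chrX:72174806-72175105 and Foxo4 at chrX:72007828-72008127. Dnmt3a was placed at chr6:38131731-38132030 and Tet3 at chr4:179746938-179747237.
Fgd3: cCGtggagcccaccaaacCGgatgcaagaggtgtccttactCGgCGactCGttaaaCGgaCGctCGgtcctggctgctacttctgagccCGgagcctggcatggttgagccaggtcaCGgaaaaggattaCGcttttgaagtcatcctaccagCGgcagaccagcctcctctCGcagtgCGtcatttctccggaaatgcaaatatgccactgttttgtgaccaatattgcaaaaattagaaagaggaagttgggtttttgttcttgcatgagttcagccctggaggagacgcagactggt
Plekhg5: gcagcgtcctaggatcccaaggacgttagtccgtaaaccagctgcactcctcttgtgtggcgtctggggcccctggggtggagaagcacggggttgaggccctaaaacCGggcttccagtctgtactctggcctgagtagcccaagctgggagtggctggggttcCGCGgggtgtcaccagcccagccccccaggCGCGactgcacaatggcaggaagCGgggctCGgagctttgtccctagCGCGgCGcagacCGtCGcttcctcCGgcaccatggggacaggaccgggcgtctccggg
Nono: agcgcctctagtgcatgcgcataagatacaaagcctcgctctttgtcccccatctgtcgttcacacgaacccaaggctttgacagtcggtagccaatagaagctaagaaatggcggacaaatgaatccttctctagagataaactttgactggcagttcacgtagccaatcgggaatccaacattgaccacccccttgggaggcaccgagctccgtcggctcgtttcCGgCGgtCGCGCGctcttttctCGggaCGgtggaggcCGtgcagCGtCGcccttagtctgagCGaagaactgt
Foxo4: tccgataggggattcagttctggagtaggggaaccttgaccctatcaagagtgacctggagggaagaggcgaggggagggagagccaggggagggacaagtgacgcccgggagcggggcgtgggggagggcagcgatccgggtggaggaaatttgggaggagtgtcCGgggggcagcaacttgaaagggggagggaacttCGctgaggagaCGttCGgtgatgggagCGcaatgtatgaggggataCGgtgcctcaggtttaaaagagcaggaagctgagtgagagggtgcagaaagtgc
Dnmt3a: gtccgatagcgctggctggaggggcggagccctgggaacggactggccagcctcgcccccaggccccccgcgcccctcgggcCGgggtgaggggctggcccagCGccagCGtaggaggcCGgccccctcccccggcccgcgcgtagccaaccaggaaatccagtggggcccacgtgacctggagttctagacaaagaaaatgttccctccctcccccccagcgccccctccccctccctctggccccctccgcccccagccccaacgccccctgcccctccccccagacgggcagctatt
Tet3: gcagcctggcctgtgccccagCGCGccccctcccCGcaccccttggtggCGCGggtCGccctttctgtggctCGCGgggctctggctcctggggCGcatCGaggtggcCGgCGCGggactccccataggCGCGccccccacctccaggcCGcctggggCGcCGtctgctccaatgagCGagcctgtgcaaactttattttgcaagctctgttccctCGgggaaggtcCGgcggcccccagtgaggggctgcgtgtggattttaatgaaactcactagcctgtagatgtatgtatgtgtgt

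Mean methylation did not pass a test between the groups. Over all common sites the 4 HS_DT rats averaged 29.69 to 29.81% and the 4 PRE_LS rats 29.61 to 29.82%. The group means were 29.74% ± 0.0543 (SD, n = 4) in HS_DT and 29.73% ± 0.0930 (SD, n = 4) in PRE_LS. The difference was 0.00494 percentage points (SE 0.0538; exact two-sided permutation test, p = 0.943, the smallest p that 4 rats against 4 allow being 0.0286). With sites weighted by their reads the difference was 0.332 points (exact permutation p = 0.657). The 4 HS_SCR rats averaged 29.75% ± 0.3496 (SD, n = 4), with 1 rat at 29.23%.

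Unmethylated, intermediate and methylated CpGs were also looked at apart, and none of these classes passed the exact test. The 708713 common sites with a mean level under 20% differed by 0.0318 points, the 282456 sites from 20 to 80% by 0.0357 points and the 228534 sites over 80% by -0.116 points. All adjusted p-values over this family of 8 means were 0.943 (exact permutation tests, Benjamini-Hochberg). CpG-dense sequence, taken as bins of 500 bp with 20 or more common sites, stood at 3.07% ± 0.0350 in HS_DT and 3.02% ± 0.0641 in PRE_LS (SD, n = 4 each), and the HS_DT rat was higher in 13 of 16 pairs of rats (exact permutation p = 0.2). Without PRE_LS replicate 4 this difference was 0.0786 points with an exact permutation p of 0.0286, before adjustment. In all 8 rats with sites weighted by their reads it was 1.503 points (exact permutation p = 0.171), and at sites under 20% and from 20 to 80% it was 1.26 and 0.527 points (exact permutation p = 0.114 and 0.514). At sites over 80% the read-weighted difference had the other sign, -0.200 points (exact permutation p = 0.0857). The size of these differences thus depended on the weighting. Bins with 10 to 19, 3 to 9 and 1 to 2 common sites differed by -0.0132, -0.0139 and -0.0633 points.

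**Figure D1:**
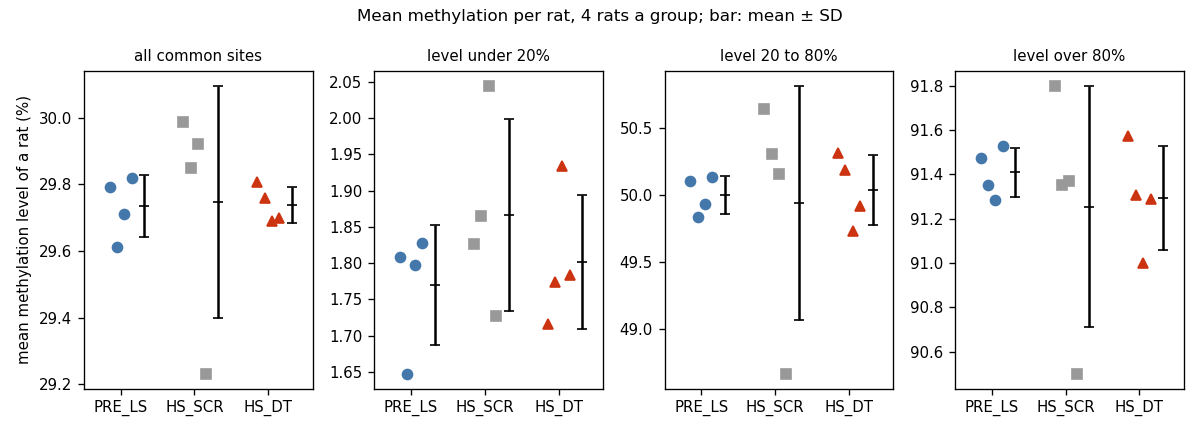
Mean methylation level of each rat (%, y axis, a separate scale for each panel that does not start at 0) over all common sites and over sites of low, intermediate and high level, for PRE_LS, HS_SCR and HS_DT (x axis); points are rats, bars the mean ± SD of 4 rats. HS_DT and PRE_LS overlap in all 4 panels, and 1 HS_SCR rat lies below the others in the first panel at 29.23%.

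By chromosome, 10 of 21 chromosome means were higher in HS_DT and 11 lower, from -0.0977 points on X to 0.206 points on chromosome 14. On chromosome 14 the means were 29.1% ± 0.202 and 28.9% ± 0.212 (SD, n = 4 each), with an exact permutation p of 0.229. After adjustment over the 21 chromosomes the smallest p was 0.979 (exact permutation tests).

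No single CpG passed the test between HS_DT and PRE_LS. A quasi-binomial logistic model with limma-moderated dispersion was run on the 525381 common sites whose pooled level over the 8 rats was 5 to 95%, and 0 sites (0%) had a Benjamini-Hochberg adjusted p below 0.05. The lowest adjusted p of any site was 0.410. Without adjustment, 29451 sites (5.61%) had a p below 0.05, of which 15345 were higher in HS_DT and 14106 lower. At 14904 sites (2.84%) the 4 rats of one group were all above the 4 of the other. Of all ways to split 8 rats into 4 and 4, 2.86% separate them in this way. limma on log ratios and edgeR's quasi-likelihood test called 0 sites too, with 25788 and 23711 sites at an unadjusted p below 0.05. Leaving out PRE_LS replicate 3 gave 1 call, at chr2:61808444 (adjusted p = 0.00554, limma-moderated model). The HS_DT rats read 91.9 to 100% there, the PRE_LS rats kept 60, 53.6 and 47.5%, and the PRE_LS rat left out 92.2%, so the 8 rats together do not separate. The HS_SCR rats read 91.7, 90.9, 43.4 and 52.1%, so this site also differed widely between rats of 1 group.

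The same test on bins of 500 bp, which gather the reads of neighbouring CpGs, gave 0 calls among 96261 bins with 3 or more common sites (0%; the lowest adjusted p was 0.381). Without adjustment, 5017 bins (5.21%) had a p below 0.05, split into 2506 higher and 2511 lower. In 2920 bins (3.03%) the groups were free of overlap. limma on log ratios called 0 bins, with 5288 at an unadjusted p below 0.05. HS_DT was the higher group in 49.8% of bins, the median absolute difference was 1.45 points and the 95th percentile 6.15 points. A difference of 10 points or more was seen in 842 of the 96261 bins. In 259 of these the groups did not overlap, 138 of them higher and 121 lower in HS_DT. The same counts were 842 and 208 for HS_SCR minus PRE_LS, and 791 and 216 for HS_DT minus HS_SCR.

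**Figure D2:**
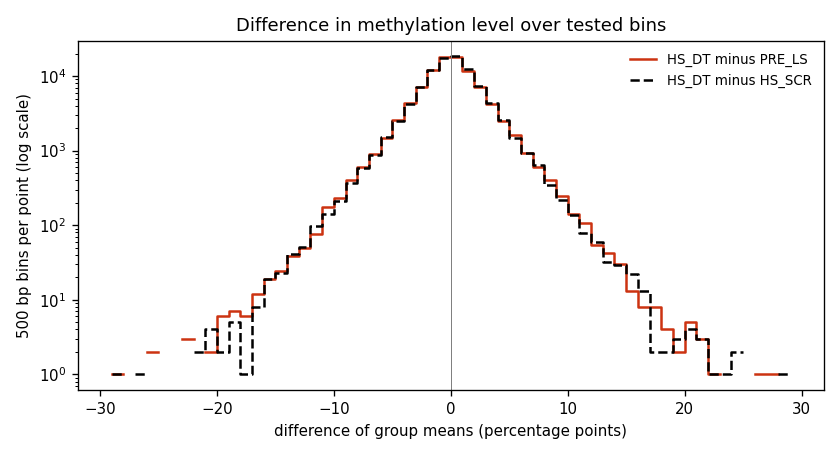
Number of tested bins of 500 bp (y axis, log scale) by the difference of group means in percentage points (x axis, 1-point steps) for HS_DT minus PRE_LS (solid) and HS_DT minus HS_SCR (dashed), which share the HS_DT rats. The median absolute difference was 1.45 points in each, and the largest 28.9 and 28.7 points.

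Simulated counts with the depth, level and spread of these libraries show what the test could see at middle levels. Changes were placed only where the pooled level lay near the middle of its range. Recovery at low or high levels was not simulated. A change of 10 points was recovered in 13.5% of changed bins, one of 20 points in 78% and one of 30 points in 100%. For single sites these shares were 0%, 14.5% and 64%. At 30 points, false calls numbered 19 beside 200 changed bins and 30 beside the recovered sites, which is more than the nominal 5% of calls. At middle levels, differences of about 10 points at single sites or bins were therefore mostly undetectable with 4 rats a group at this depth.

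Over whole profiles, rats of different groups were slightly further apart than rats of the same group when both groups were pooled. The mean absolute difference in bin level was 4.04 points between groups, 3.99 points within HS_DT and 4.04 points within PRE_LS. The excess of between over within was 0.0257 points, with an exact one-sided permutation p of 0.0286, the smallest this design allows. With counts thinned to 1 depth per bin the excess was 0.0233 points at the same permutation p. The thinned differences were 4.54 points between groups, 4.47 points within HS_DT and 4.56 points within PRE_LS. In thinned counts the PRE_LS rats were thus no closer to each other than to the HS_DT rats. In 7 of the 8 fits that left out 1 rat the exact permutation p rose above 0.05, to between 0.114 and 0.429, and only without PRE_LS replicate 3 did it stay at 0.0286, with an excess of 0.0597 points. The HS_DT rats numbered 781, 782 and 783 lay 4.07, 4.03 and 4.11 points from the PRE_LS rats on average, and rat 862, the one in the PRE_LS number range, lay 3.94 points from them. Within HS_DT alone, rat 862 also lay nearest the others, at 3.94 points. In HS_SCR, which holds 2 rats of each range, rats of the same range were 4.30 points apart and rats of different ranges 4.40 points. The part of the number range in the excess was not tested.

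The leading bins are described next, and because they were picked by a small p in this contrast, their separation is a description with no support from it. The rule took, in each direction, the bins with the smallest p whose 4 HS_DT rats did not overlap the 4 PRE_LS rats, and added bins with 10 or more CpGs. It named 12 bins higher and 14 lower in HS_DT, numbered 1 to 26 here, with adjusted p from 0.381 to 0.748 (limma-moderated quasi-binomial model). No annotation of the rn5 build was used here, so a gene is given only where a placed gene start lay within 5 kb, which held for 4 bins.

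Bin 1, at chr10:71998501-71999000 with 11 common CpGs, stood at 12.2, 11.01, 13.2 and 14.4% in the HS_DT rats and at 3.65, 6.27, 5.11 and 5.68% in the PRE_LS rats. The HS_DT rats all lay above the PRE_LS rats, with means of 12.7% ± 1.43 against 5.18% ± 1.12 (SD, n = 4 each) and a difference of 7.52 points (SE 0.908, adjusted p = 0.381 in the limma-moderated model). All 11 CpGs were higher in HS_DT, and at 6 of them the groups did not overlap, with 630 to 1232 reads per rat. Over all tested sites 2.84% were free of overlap. The bin was picked for its separation and neighbouring CpGs can share reads, so CpG counts in this and the other named bins add no support. The HS_SCR rats were spread from 3.98 to 11.6%, so that group reached into the range of HS_DT. In other MCW rats of the series the bin went the other way, 4.05% ± 2.91 on high salt (n = 4) against 16.1% ± 5.88 on low salt (n = 3), over the 4 CpGs that table holds.

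Bin 2, at chr16:19972501-19973000 with 13 common CpGs, read 40.9, 46.0, 46.8 and 43.4% in HS_DT against 30.7, 33.8, 30.4 and 28.1% in PRE_LS. The difference was 13.5 points (SE 1.78, adjusted p = 0.381, limma-moderated model), and all 13 CpGs were higher. The HS_SCR rats read 38.2 to 50.5% and thus lay with HS_DT, well above PRE_LS.

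The widest separation among the higher bins was in bin 8, at chr3:172159001-172159500, with 4 CpGs and 90 to 282 reads per rat. HS_DT rats stood at 45.6, 42.0, 29.2 and 32.1% and PRE_LS rats at 11.2, 19.9, 11.1 and 15.3%, and HS_SCR averaged 36.0% ± 10.8 (SD, n = 4). Bin 5, at chr3:129678001-129678500, lay 4554 bases downstream of a placed start of Lzts3, a leucine zipper protein of the postsynaptic density. It averaged 28.5% ± 2.68 in HS_DT, 17.9% ± 1.00 in PRE_LS and 30.6% ± 2.44 in HS_SCR (SD, n = 4 each), so both groups that received a GapmeR and high salt were above the untreated rats. Bin 12, at chr1:181040001-181040500 and 394 bases upstream of LOC134483770, was low in all rats, 6.89% ± 0.731 in HS_DT, 3.11% ± 0.862 in PRE_LS and 6.97% ± 3.27 in HS_SCR (SD, n = 4 each).

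The leading lower bin was bin 13, at chr15:54879501-54880000, with 7 common CpGs. HS_DT rats read 37.7, 27.1, 31.6 and 34.4% and PRE_LS rats 53.1, 48.4, 52.0 and 51.6%, with no overlap. The difference was -18.6 points (SE 2.45, adjusted p = 0.381, limma-moderated model), and HS_SCR averaged 35.7% ± 8.52 (SD, n = 4), near HS_DT. One CpG in it, chr15:54879954, had the smallest p of all sites, at 30, 35.7, 22.2 and 35.7% in HS_DT against 66.7, 75.0, 91.7 and 71.4% in PRE_LS. Its depth was only 14 to 48 reads per rat, and its adjusted p was 0.410 (limma-moderated model).

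Bin 14, at chr20:6920001-6920500 with 6 CpGs, had the lowest p between HS_DT and HS_SCR of the 26 bins. HS_DT rats stood at 14.5, 14.6, 15.9 and 15.2%, PRE_LS rats at 23.3, 20.5, 22.9 and 24.7% and HS_SCR rats at 20.3, 21.4, 20.9 and 20.2%. HS_DT thus lay below both other groups without overlap. The difference from PRE_LS was -7.82 points (SE 0.947, adjusted p = 0.707), and that from HS_SCR had an unadjusted p of 0.00086 and an adjusted p of 1.00 (limma-moderated model).

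Bin 16, at chr17:17807001-17807500, holds most of the Fgd3 window printed above, and read 33.6, 35.5, 37.5 and 31.4% in HS_DT against 47.0, 46.4, 44.3 and 42.2% in PRE_LS. Bin 21, at chr10:50167501-50168000, lay 2800 bases downstream of the start of Hs3st3b1, an enzyme that adds 3-O-sulphate to heparan sulphate. It read 14.0, 12.1, 10.6 and 10.3% in HS_DT, 16.6, 18.0, 18.6 and 16.6% in PRE_LS, and 12.8 to 21.6% in HS_SCR. Here HS_SCR was not between the other groups, its mean of 18.1% being the highest of the 3.

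Of the lower bins, 3 lay in 1 stretch of the X chromosome, at chrX:123967001-123967500, chrX:124121501-124122000 and chrX:124155501-124156000. Their HS_DT means were 46.3, 43.8 and 43.1% and their PRE_LS means 53.2, 51.4 and 51.0%. HS_SCR replicate 1 stood at 45.4, 43.4 and 43.5% in them, near HS_DT, and the other HS_SCR rats at 50.7 to 56.1%, near PRE_LS. In other MCW rats of the series chrX:123967001-123967500 and chrX:124121501-124122000 held equal values. Whether the 3 bins are separate observations was not tested.

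Rat 862 is the HS_DT rat in the PRE_LS number range. It was the HS_DT rat nearest to PRE_LS in 10 of the 26 named bins and the one farthest from PRE_LS in 5. In bins 1, 2, 13 and 14 it read 13.2, 46.8, 31.6 and 15.9%, and was the nearest in bin 14 and the farthest in bin 2. No named bin can have rat 862 among the PRE_LS rats, because the rule asked for groups that do not overlap. With the number range as a term over all 12 libraries, 0 bins were called and the smallest adjusted p was 0.985 (limma-moderated model).

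The scrambled-GapmeR rats were set beside the named bins because they shared the surgery, an oligonucleotide and high salt with HS_DT. The mean of HS_SCR lay between those of PRE_LS and HS_DT in 22 of the 26 bins and on the HS_DT side of PRE_LS in 25. The PRE_LS values that chose the bins enter these counts, so nothing is read from them. In the direct test of HS_DT against HS_SCR over 96356 bins, 0 bins (0%) were called, the lowest adjusted p being 0.430 (limma-moderated model). Without adjustment, 4248 bins (4.41%) had a p below 0.05. Of the 26 named bins, 11 were below 0.05 unadjusted, 2 of the 12 higher and 9 of the 14 lower ones, and this contrast shares the HS_DT rats that chose the bins.

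**Figure D3:**
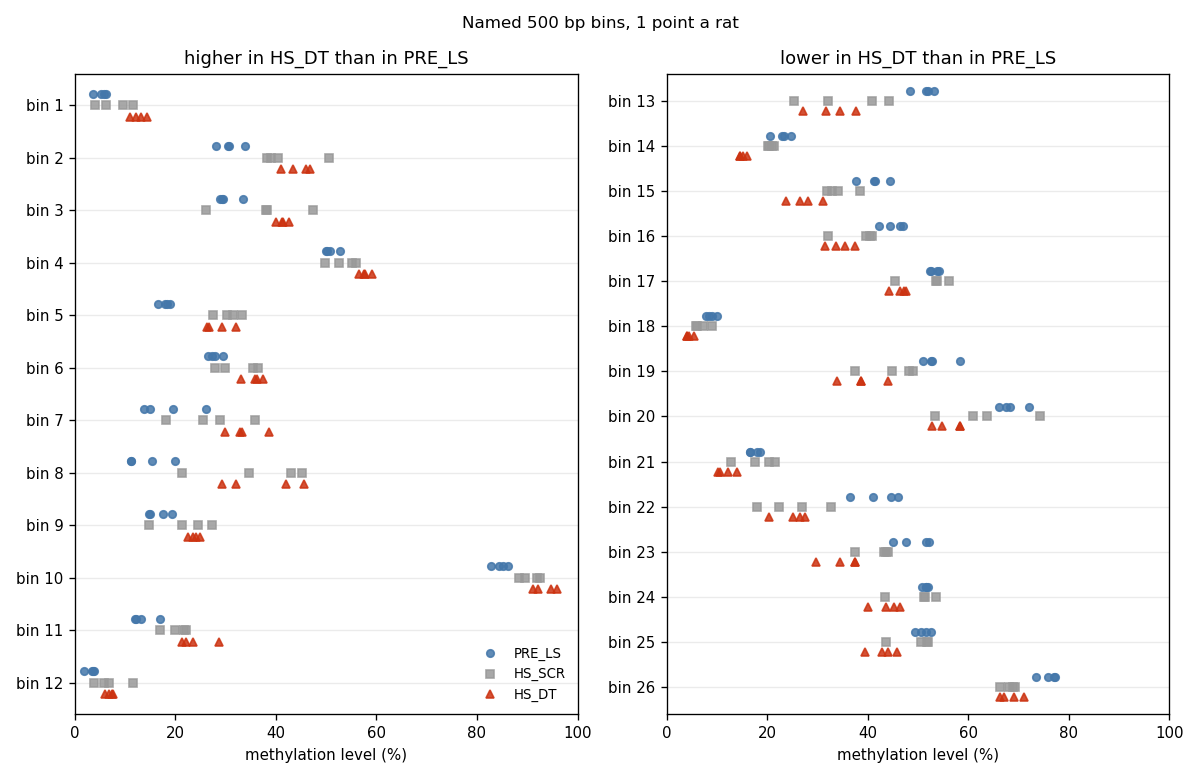
Methylation level (%, x axis) of each rat in the 26 named bins (y axis), higher in HS_DT on the left and lower on the right; 1 point is 1 rat, with circles for PRE_LS, squares for HS_SCR and triangles for HS_DT. HS_DT and PRE_LS do not overlap, as the rule required, and HS_SCR means lie between them in 22 of 26 bins.

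Other rats of the series offered a look at the same bins that the choice did not use. MCW rats on high salt for 14 days (MCW_HS, n = 4) and on low salt (MCW_LS, n = 3), which had no GapmeR, covered 20 of the 26 bins. Their high-minus-low difference had the sign of HS_DT minus PRE_LS in 12 of the 20, in 4 of 8 higher and 8 of 12 lower bins. Bins 17 and 24 on X held equal values in that table, so they are 1 observation there, and counted once the sign was shared in 11 of 19 bins, 7 of 11 lower ones. Those tables differ in depth and sites, so the levels were not compared by a test.

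At single CpGs the rule named 5 sites in each direction. The leading higher site, chr10:45135964, read 87.5, 83.3, 89.5 and 87.5% in HS_DT and 50, 45.5, 52.6 and 50% in PRE_LS, on 22 to 38 reads per rat, with HS_SCR at 64.7 to 83.3% between them. The site chr13:117010652 read 100% in all 4 PRE_LS rats and 84.8 to 93.3% in HS_DT, on 26 to 77 reads. The lower sites chr7:142130726 and chr7:143248697 held equal counts in all libraries, 37.9 to 49.5% in HS_DT and 62.2 to 76.4% in PRE_LS, so they are 1 observation and their place is uncertain. Such positions with counts equal to another's made up 11.1% of common sites. None of the 10 sites lay within 5 kb of a placed gene start.

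Gene promoters were reached by an indirect route, because the given RefSeq sequences are of build GRCr8 and the table is of rn5. Each sequence of 300 bases was searched for in the table as a run of CpG spacings, and a window was kept when it fell at 1 location on the chromosome RefSeq gives. Of 9514 sequences placed at 1 location, 98.9% fell on that chromosome. This gave 9411 windows of 8555 genes, and 7116 distinct windows held 3 or more common sites. A name therefore rests on matched spacing, not on an alignment in rn5.

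Methylation around these placed starts had the trough known for CpG-rich promoters, and the groups followed each other through it. In the 250 bases after the start the level was 1.41% ± 0.00945 in HS_DT and 1.41% ± 0.0125 in PRE_LS (SD, n = 4 each). From 2000 to 1750 bases upstream it was 20.3% ± 0.0552 and 20.6% ± 0.223 (SD, n = 4 each). Over the 7116 windows the mean was 2.99% ± 0.0261 in HS_DT and 3.00% ± 0.0156 in PRE_LS (SD, n = 4 each; exact permutation p = 0.457), and 6608 windows, or 92.9%, were under 5%.

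**Figure D4:**
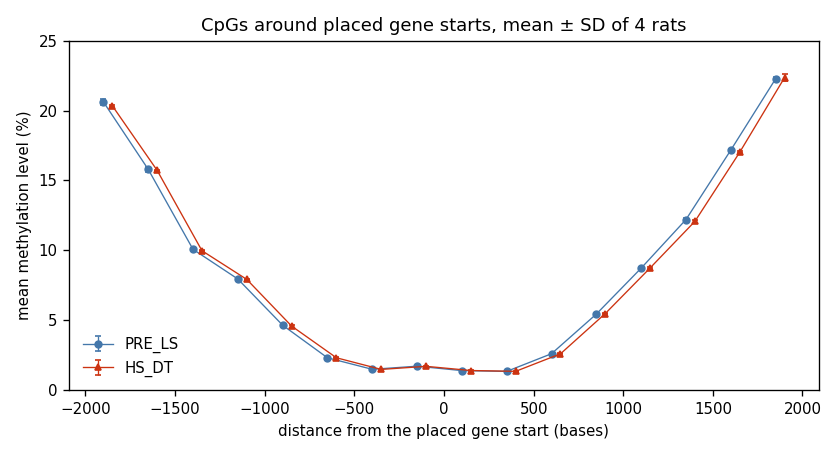
Mean methylation level (%, y axis) of common CpGs by distance from placed gene starts (bases, x axis, 250-base steps, the groups drawn slightly apart) for PRE_LS (circles) and HS_DT (triangles); error bars are the SD of 4 rats. Both groups fall from about 20% at the edges to 1.41% just after the start.

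Promoters on X stood apart from the rest in level, in both groups alike. The 147 windows on X averaged 28.5% ± 0.701 in HS_DT, 28.9% ± 0.606 in PRE_LS and 28.9% ± 0.467 in HS_SCR (SD, n = 4 each), and only 3 were under 5%. The 6969 windows on the other chromosomes averaged 2.45% ± 0.0133 in HS_DT and 2.45% ± 0.0118 in PRE_LS (SD, n = 4 each). The difference between groups on X was -0.381 points, and the groups overlapped (exact permutation p = 0.429). Of the 506 windows that could be tested, 144 or 28.5% lay on X.

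The test over those 506 windows called 0 promoters (0%), the lowest adjusted p being 0.0987 (limma-moderated quasi-binomial model, adjusted over these windows only). Without adjustment, 41 windows (8.1%) had a p below 0.05, of which 17 were higher and 24 lower in HS_DT. In 21 windows (4.15%) the groups did not overlap, 12 higher and 9 lower. limma on log ratios called 0 windows, with 33 at an unadjusted p below 0.05. The 8 non-overlapping windows with the smallest p in each direction are described, again as a description of what the choice picked. Counts of their CpGs follow from the same choice and add no support.

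Fgd3, an exchange factor for the GTPase Cdc42 that acts on the actin skeleton, had the smallest p. The HS_DT rats read 32.1, 34.5, 35.4 and 29.2%, the PRE_LS rats 44.1, 46.2, 43.1 and 41.7%, and the HS_SCR rats 40.0, 32.1, 41.8 and 39.7%. All HS_DT rats were below all PRE_LS rats, and 1 HS_SCR rat lay with HS_DT. The difference was -10.99 points (SE 1.67, n = 4 each, adjusted p = 0.0987, limma-moderated model) on 1131 to 1996 reads per rat. With no filter on the pooled level, over 6734 windows, its adjusted p was 0.0238, and under the other 15 alternatives it was 0.0754 to 0.482. The largest came with the number range as a term, where the Fgd3 difference was -7.89 points (adjusted p = 0.482, limma-moderated model). Of its 14 common CpGs, printed in capitals above, 13 were lower in HS_DT. At 6 the groups did not overlap, the farthest at -209 and the nearest at -161 bases from the start, beside 2.84% of all tested sites. The 5 CpGs nearest the start had only 10 to 44 reads each. One of them was at 0% in all 12 rats, and the other 4 were at 0% in all HS_DT rats and in PRE_LS replicate 1, with equal values of 40, 5.88 and 14.3% in the remaining PRE_LS rats, so these 4 CpGs give 1 observation at low depth.

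The Plekhg5 window read 11.4, 9.46, 15.5 and 12.2% in HS_DT and 22.8, 21.2, 25.2 and 16.9% in PRE_LS. All 13 CpGs were lower in HS_DT. The mean of HS_SCR, at 20.4% ± 6.53 (SD, n = 4), stood near PRE_LS, but its replicate 1, at 14.4%, lay within the range of HS_DT. HS_DT differed from PRE_LS by -9.39 points, with an adjusted p of 0.155 (limma-moderated model), and with the number range as a term by -4.48 points.

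Crb2, a polarity protein of the apical membrane, read 19.8, 21.7, 22.4 and 19.4% in HS_DT and 23.5, 26.8, 26.5 and 28.1% in PRE_LS. Foxo4, a forkhead transcription factor held in check by insulin and PI3K signalling, averaged 22.5% ± 3.40 against 36.2% ± 7.87 (SD, n = 4 each), with HS_SCR at 37.4% ± 7.13. Its highest HS_DT rat, at 25.7%, was just under its lowest PRE_LS rat, at 26.01%. Lep, which encodes leptin, was at 40.6 to 47.5% in HS_DT, 49.04 to 56.6% in PRE_LS and 37.3 to 49.1% in HS_SCR. Dnah10, a dynein heavy chain of cilia, averaged 41.7% in HS_DT, 42.4% in HS_SCR and 53.8% in PRE_LS, and LOC102548851 averaged 48.5, 52.4 and 63.4%. Pmpca, a subunit of the peptidase that processes imported mitochondrial proteins, differed least, at 15.5% ± 1.49 against 17.9% ± 0.553 (SD, n = 4 each), with 20 of 32 CpGs lower and 6 higher.

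Among the higher windows Nono, an RNA-binding protein of paraspeckles, led with 25.1, 20.3, 14.1 and 25.3% in HS_DT against 7.17, 12.5, 6.94 and 5.41% in PRE_LS. HS_SCR averaged 9.96% ± 5.86 (SD, n = 4), near PRE_LS, but its replicate 2, at 18.0%, lay within the range of HS_DT. The difference was 13.2 points (SE 3.06, adjusted p = 0.155, limma-moderated model), all 11 CpGs were higher, and rat 862 was the lowest of HS_DT at 14.1%. With the number range as a term the Nono difference was 6.95 points.

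Prickle3, of planar cell polarity, averaged 31.5% ± 1.77 in HS_DT and 24.2% ± 3.44 in PRE_LS (SD, n = 4 each). Med14, a subunit of the Mediator complex, averaged 33.2% ± 5.77 and 25.8% ± 2.00 (SD, n = 4 each), with HS_SCR at 24.3%. LOC134484034 averaged 26.6 and 16.3%, so 4 of the 8 higher windows lay on X, with 1 of the 8 lower ones, beside 28.5% of all tested windows. Cav3, the muscle form of caveolin, averaged 39.9% in HS_DT and 29.5% in PRE_LS, with HS_SCR spread from 25.6 to 53.4%. Sox30, a testis transcription factor, averaged 58.5% ± 1.07 and 54.6% ± 1.64 (SD, n = 4 each), but its 22 CpGs were split into 11 higher and 10 lower in HS_DT, and 1 did not overlap. LOC120102231 and LOC134486667 have overlapping windows that share CpGs, and stood 9.65 and 9.19 points higher in HS_DT. For all 16 windows the adjusted p was between 0.0987 and 0.56 in this contrast and between 0.295 and 0.992 between HS_DT and HS_SCR (limma-moderated model).

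**Figure D5:**
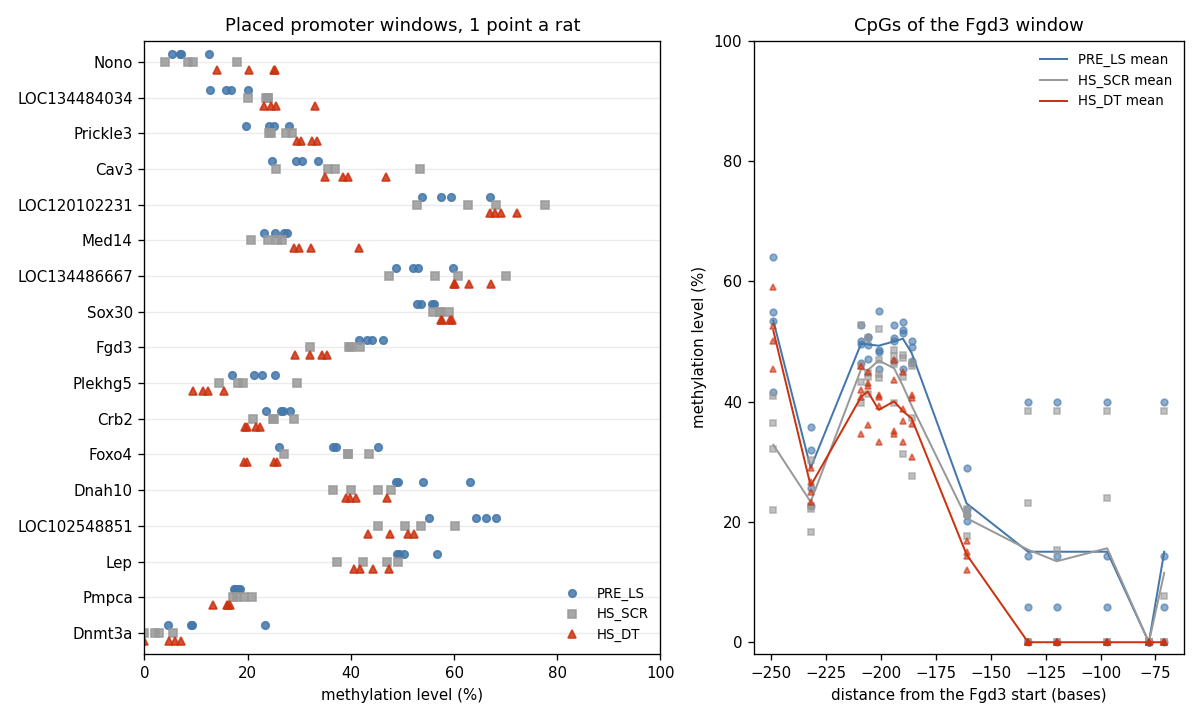
Left, methylation level (%, x axis) of each rat in the 16 named promoter windows and Dnmt3a (y axis), with circles for PRE_LS, squares for HS_SCR and triangles for HS_DT; right, level (%, y axis) of single CpGs in the Fgd3 window by distance from the start (bases, x axis), with points for rats and lines for group means. In Fgd3 the HS_DT line lies below the PRE_LS line at 13 of 14 CpGs, and in Dnmt3a the groups overlap.

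The genes of the methylation machinery were looked at for a mark at the targets themselves. Of 7 such genes, 4 had a measured window, 1 of them high enough to be tested, and 0 of the 4 windows were called or free of overlap, beside 0% called and 4.15% free of overlap among the 506 tested windows. Their median difference was -0.0797 points, beside -0.0411 points over all tested windows. The Tet2, Tet3 and Tdg windows lay near 0%, which holds their differences near 0, and were not among the tested windows. The sets are thus unlike, and nothing is read from their comparison. In the Dnmt3a window the HS_DT rats read 5.88, 7.14, 0 and 4.76% and the PRE_LS rats 9.09, 9.29, 4.55 and 23.3%, and HS_SCR averaged 2.63% ± 2.30 (SD, n = 4). The PRE_LS mean rested on 1 rat, replicate 4, with 28 methylated of 120 read counts summed over 4 CpGs, and the groups overlapped. That rat read 35% at the CpGs at -147 and -141 bases and 0% at those at -168 and -131 bases. Its 95% Wilson interval of 16.7 to 31.7% takes the summed counts as independent. Neighbouring CpGs can lie on the same fragment, so the interval is too narrow. The groups differed by -7.12 points, with an unadjusted p of 0.0437 and an adjusted p of 0.567 (limma-moderated model), and without PRE_LS replicate 4 by -3.20 points. Bins 769, 1269 and 3269 bases after the Dnmt3a start did not share this difference. They stood at 24.9, 33.4 and 76.0% in HS_DT and at 25.7, 33.5 and 74.5% in PRE_LS. Their unadjusted p-values were 0.839, 0.765 and 0.243 (limma-moderated model). Of the 21 CpGs of that sequence, 12 matched when it was placed, and only 4 entered, on 66 to 269 summed read counts per rat. In HS_DT replicate 3, 0 of 164 such counts allow a level of up to 1.83% if taken as independent.

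The Tet3 window was unmethylated in all rats, with 1 methylated read among the 4 HS_DT rats and 10 among the 4 PRE_LS rats, of 1592 to 2751 reads each, and was below the level tested. Of 4 bins upstream of that start, the nearest, chr4:179747001-179747500, was at 0 to 0.0391% in HS_DT and 0.0801 to 0.155% in PRE_LS without overlap, but at 0 to 0.314% in HS_SCR, and was too low to be tested. Among tested bins 3.03% were free of overlap, and the share among bins this low was not computed. The next 2 were under 1% in all rats, and their groups overlapped. The farthest, at chr4:179749001-179749500, stood at 19.2% in HS_DT, 13.4% in PRE_LS and 24.0% in HS_SCR (unadjusted p = 0.0521, adjusted p = 0.959, limma-moderated model). At another placed Tet3 start, the bin chr4:179732501-179733000 averaged 0.318% in HS_DT and 0.323% in PRE_LS, and the groups overlapped. Tdg, the glycosylase that removes oxidised methylcytosine, had 0 methylated of 5789 reads over the 8 rats, which allows a level of up to 0.0518%. Tet2 was at or under 0.258% in each rat. Such intervals cover counting error only, and take read counts summed over neighbouring CpGs as independent. A fragment that covers several CpGs is counted at each, so these limits are too narrow.

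Of 11 genes of blood pressure and oxidant control, 3 had a measured window, Ace, Edn1 and Nox4, and none was high enough to be tested. Ace, the angiotensin-converting enzyme, stood at 0.509% ± 0.135 in HS_DT and 0.693% ± 0.126 in PRE_LS. Edn1, the precursor of endothelin, stood at 0.0851% ± 0.0757 and 0.400% ± 0.613, the latter resting on PRE_LS replicate 1 at 1.32%, without which the PRE_LS mean was 0.0947%. Nox4, an oxidase of the kidney, stood at 3.69% ± 0.420 and 3.43% ± 0.832 (SD, n = 4 each). Their median difference was -0.184 points. Of 7 thick ascending limb genes 0 had a measured window.

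Imprinted and germline genes served as marks of methylation set early in life, and 0 of their 5 tested windows were called. Peg10, imprinted in placental mammals, read 32.9, 52.8, 40.1 and 36.0% in HS_DT and 47.5, 49.1, 42.2 and 46.3% in PRE_LS. The higher of the measured Gnas windows read 16.3, 42.5, 17.9 and 30.04% in HS_DT and 27.6 to 32.4% in PRE_LS. Both were more spread in HS_DT, with SDs of 8.73 and 12.2 against 2.94 and 1.99 points in PRE_LS, a difference in spread that was not tested. In HS_SCR these SDs were 6.48 and 5.82 points, also above PRE_LS. Over all tested bins the SD was larger in HS_DT in 49.5%. The germline genes Ddx4, Mael and Tdrd1 were methylated in both groups, Ddx4 at 90.6% ± 2.49 and 91.9% ± 1.84 (SD, n = 4 each), and the other 2 at 75.5 to 76.1%. The median difference was -1.57 points over the 4 imprinted windows and -0.333 points over the 3 germline windows.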

How the data were processed

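RRBS counts of 12 MCW SS rats were used, and beside the named bins those of the MCW_HS and MCW_LS rats in the other deposited table. The main table gives, per the file headers, the counts of C and T reads of each rat at 5477824 CpG positions. Trim Galore 0.2.5 and build rn5 are named in the submitters' processing notes. The aligner, the methylation caller and any duplicate removal were not given in the sources used here. Every column was matched to its rat by the animal number, and 16 per-sample columns of other groups were not used.

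Common sites, bins of 500 bp with 3 or more of them, and placed promoters were tested with a quasi-binomial logistic model on counts per rat, if their pooled level was 5 to 95%. Dispersion was moderated with limma's squeezeVar (trend on coverage, held at 1 or more), the group by a two-sided F test, and p-values by Benjamini-Hochberg over all items of that kind. A call is an adjusted p below 0.05. Single values per rat were compared by exact permutation tests. The model was tested on simulated data.

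Named bins were, per direction, the 12 with the smallest p among non-overlapping ones (bins within 2 points of another in each rat counting once) and up to 5 with 10 or more CpGs. Named sites were 5 per direction. The comparison and the lists were chosen with earlier results of these data known. Placing RefSeq GRCr8 promoters by CpG spacing (at least 8 matching CpGs, and at least 90% of listed positions matching), the rule of 8 promoters per direction and the imprinted and germline lists departed from the planned design, which named genes only from an rn5 annotation, and were added after the files were seen. The promoter test reuses CpGs of the bins and is adjusted over its 506 windows only.

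Same-numbered rats of the 2 groups did not deviate together (correlations -0.00266 to 0.00831), so the numbers were not taken as pairs. Alternatives were coverage, level filter, bin size, shared dispersion, limma 3.58.1 on log ratios (0.5 added), edgeR 4.0.16, a replicate block, the animal number range, positions of equal counts and each rat left out. Python 3.11.15, numpy 2.4.6, scipy 1.17.1, pandas 2.3.3, matplotlib 3.10.9 and R 4.3.3 were used.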

Additional observations from a re-analysis of the deposited data

Results flagged for a closer look

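Of 131 groups of 4 rats looked at, 4 (3.05%) held a rat far from the other 3, where chance alone flags about 1 in 20 groups. In the mean over sites under 20%, the lowest PRE_LS rat was at 1.65% and the others at 1.80 to 1.83%. In bin 3, at chr4:198327001-198327500, the highest PRE_LS rat was at 33.5% and the others at 28.9 to 29.6%, with HS_DT at 41.3% ± 1.03 (SD, n = 4). In the Pmpca window the lowest HS_DT rat was at 13.3% and the others at 16.1 to 16.6%. At the site chr14:1465822 the highest HS_DT rat was at 50% and the others at 27.3 to 30%, on 28 to 53 reads per rat.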

How the results depend on the processing

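Calls stayed at 0 for bins in HS_DT against PRE_LS and in HS_DT against HS_SCR, and for chromosome means, under every alternative run. Called sites were 0 to 1 when each rat was left out and 0 otherwise. Called promoters were 1 with no filter on the pooled level (Fgd3) and 0 otherwise; the cause was not tested. With the replicate block, 0 sites, 0 bins and 0 promoters were called, with smallest adjusted p-values of 0.534, 0.820 and 0.138 (limma-moderated model), and 0 bins in HS_DT against HS_SCR. The named bins were chosen for groups that do not overlap, and the named sites, chosen by p, held such groups too. Leaving out a rat therefore cannot reverse these bins and sites, and nothing is read from their direction.

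Mean differences changed sign or size. With sites weighted by reads they were 0.332 points over all sites, 1.26 under 20%, 0.527 from 20 to 80%, -0.200 over 80%, 1.503 in bins with 20 or more common sites, and 0.111, 0.0711 and 0.312 points in bins with 1 to 2, 3 to 9 and 10 to 19 common sites, and without positions of equal counts 0.000160 points in the last. Leaving out each rat gave -0.0354 to 0.0337 points over all sites, -0.0121 to 0.0603 under 20%, -0.0561 to 0.138 from 20 to 80%, -0.0757 to 0.0226 in bins with 3 to 9 sites, -0.0486 to 0.0130 with 10 to 19, and 0.0327 to 0.0786 with 20 or more. The profile excess was 0.0102 to 0.0597 points. Among promoters, leaving out each rat gave -8.41 to 0.336 points for Gnas, -1.87 to 2.25 for Mael and -2.46 to 1.67 for Tdrd1, and Mael was -0.361 with the number range as a term. At 20 reads in all libraries 0 sites were called too, and the group of 4 rats limits exact tests to p = 0.0286.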
